A study of Bos taurus with 86 samples.

Results

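The genes described here build and anchor the extracellular matrix, connect cells to it, or form the cytoskeleton, and they were measured in single bovine embryos. They were chosen by symbol: collagens (COL and a digit), laminin chains (LAMA, LAMB, LAMC), integrins (ITGA, ITGB), matrix metalloproteinases (MMP), their inhibitors (TIMP), alpha-actinins (ACTN), tubulins (TUB), tropomyosins (TPM), symbols that start with MYL or KIF, and FN1, SPARC and VIM. The rule found 59 of the 4452 genes that a single symbol names on the array, on 168 of its 16416 rows. Of these, 46 genes on 116 rows had values in enough embryos to be tested, among 6278 features tested in all. A prefix also takes in relatives that are not chains of a family, such as MYLIP, MYLK, ITGB1BP1 and KIFBP, and each is named as what it is where it appears.

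Collagens and laminins are secreted proteins. Laminins and type IV collagen form the basement membrane, the sheet on which epithelia such as the trophectoderm and hypoblast of the early embryo sit, while fibrillar collagens type I and III and vimentin are best known from mesenchymal cells. Integrins are paired alpha and beta chains that span the membrane and bind laminin, fibronectin or collagen outside the cell, and alpha-actinin is among the proteins that tie their inner ends to actin filaments. Metalloproteinases cut matrix proteins and TIMPs inhibit them. Tropomyosins and myosin light chains govern contraction of actin filaments, and tubulins form the microtubules along which kinesins move.

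The study compared 43 individual embryos: 14 labelled AI, 14 labelled IVD and 15 labelled IVF. The letters AI are taken to stand for artificial insemination, and IVF for in vitro fertilization. What IVD stands for is not spelled out, so it serves as a group name, and no stage, age or breed of the embryos is stated in the labels. Every embryo's amplified RNA was hybridised against the same reference RNA on 2 arrays with the dyes exchanged, and the mean of both arrays is 1 embryo. The value used throughout is a log2 ratio, embryo over reference, after each array was centred on its median: 0 means as in the reference, and 1 unit is a doubling. The labels do not say which dye is the numerator. Cy5 over Cy3 was taken as likely, and with the opposite choice the sign of every log2 ratio and of every difference turns. A ratio to the reference does not rank abundance between genes, and in RNA from a whole embryo fewer cells of a type and less RNA per cell cannot be told apart. IVD embryos 12_1 to 12_4 may have a common origin, and the p-values then rest on a spread among embryos that were not all separate in origin.

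The IVD arrays stood apart from the others. Rows without a value numbered 1002 to 1872 per IVD embryo, as the mean of both arrays; AI embryos had 3613 to 5713 such rows and IVF embryos 3077 to 5099.5. The correlation across rows between an embryo's dye-swapped arrays, before the sign was turned, lay between -0.767 and -0.589 in IVD, between -0.912 and -0.816 in AI and between -0.911 and -0.717 in IVF. Dye bias, the mean of the unturned arrays, fell into 3 clusters: 13 AI, all 14 IVD and 2 IVF embryos lay in the first, and 11 IVF embryos with 1 AI embryo in the second. For the contrasts with IVD, group and array quality cannot be told apart. In IVF minus AI, group and dye-bias cluster nearly coincide and can hardly be told apart. Trophectoderm markers had ratios above 0 for 14 of the 14 measured genes of a list of 18, with a median of 2.33. Some of these markers were called between groups (adjusted p under 0.05 in limma). Beside AI, 5 were higher and 5 lower in IVD, and 0 higher and 5 lower in IVF. Beside IVD, 3 were higher and 7 lower in IVF. Of 3 cumulus and granulosa markers measured, 2 were higher in IVF than in AI and 2 higher in IVF than in IVD. Over all features, 46.5% were called for IVD minus AI, 37.7% for IVF minus AI and 47.6% for IVF minus IVD. The part of trophectoderm or cumulus cells in the differences below was not tested. Markers of the inner cell mass were measured by SPP1 alone (-2.97), and no maternal oocyte or oviduct marker was measured.

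The 46 genes did not move as a block. Beside AI, 8 were higher and 7 lower in IVF embryos (15 called, 32.6%, at an adjusted p under 0.05 in limma; of all features 37.7% were called, 19.9% higher and 17.7% lower). In IVD embryos 7 were higher and 14 lower than in AI (21 called, 45.7%, against 46.5% of all features, 25.5% higher and 21% lower). Between IVF and IVD, 15 were higher and 8 lower in IVF (23 called, 50%, against 47.6% of all features, 22.3% higher and 25.2% lower). The shares called were thus near those of all features in each contrast, and the counts given below for roles and lists of few genes are to be read beside these same percentages. The median difference of the 46 was 0.06 for IVF minus AI, -0.16 for IVD minus AI and 0.16 for IVF minus IVD, beside 0.04, 0.06 and -0.01 over all features. IVF minus AI and IVD minus AI share the AI embryos, and their values are given side by side without being compared as independent results.

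The split by direction rested on centring. With the values as deposited, 13 were higher and 6 lower in IVD than in AI, and 6 higher and 12 lower in IVF than in IVD; that setting moved the median of all features to 0.32 and -0.27, so single differences shift with it. Quantile normalization changed the split of IVF minus AI to 8 higher and 11 lower. The calls that held in every alternative run were 3 of 15 for IVF minus AI (ACTN1, LAMB1, MMP23), 10 of 21 for IVD minus AI (COL3A1, COL18A1, VIM, LAMB1, LAMA4, ITGB1, MMP23, TPM1, TUBB4B, TUBGCP2) and 9 of 23 for IVF minus IVD (COL3A1, COL18A1, VIM, TIMP1, ACTN1, TPM1, MYL6, TUBB4B, TUBGCP2). A block on the dye-bias cluster was run for IVF minus AI alone, so these counts do not rank the contrasts. COL8A1, FN1, ITGB1, LAMA4, MYL6 and MYLIP lost their IVF minus AI call in that block and in no other run. With the dye-bias cluster as a block, 11 of the 15 calls for IVF minus AI were lost, and those that remained were ACTN1, LAMB1, MMP23 and COL12A1. Of the 11 differences, 2 moved by over 1.5 times (COL8A1 to 0.39, MYLIP to 0.66) and 9 did not. The clusters nearly followed the groups, with 1 AI embryo in the second and 2 IVF embryos in the first. Blocked differences lean on those few embryos and are less precise. For a lost call, dye bias and lost precision cannot be told apart. The genes whose groups did not overlap at all numbered 4 for IVD minus AI (2.84% of all features did so), 3 for IVF minus IVD (3.28%) and 0 for IVF minus AI (0.542%). Across the 3 groups the F-test called 28 of the 46, against 67.1% of all features.

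**Figure D1:**
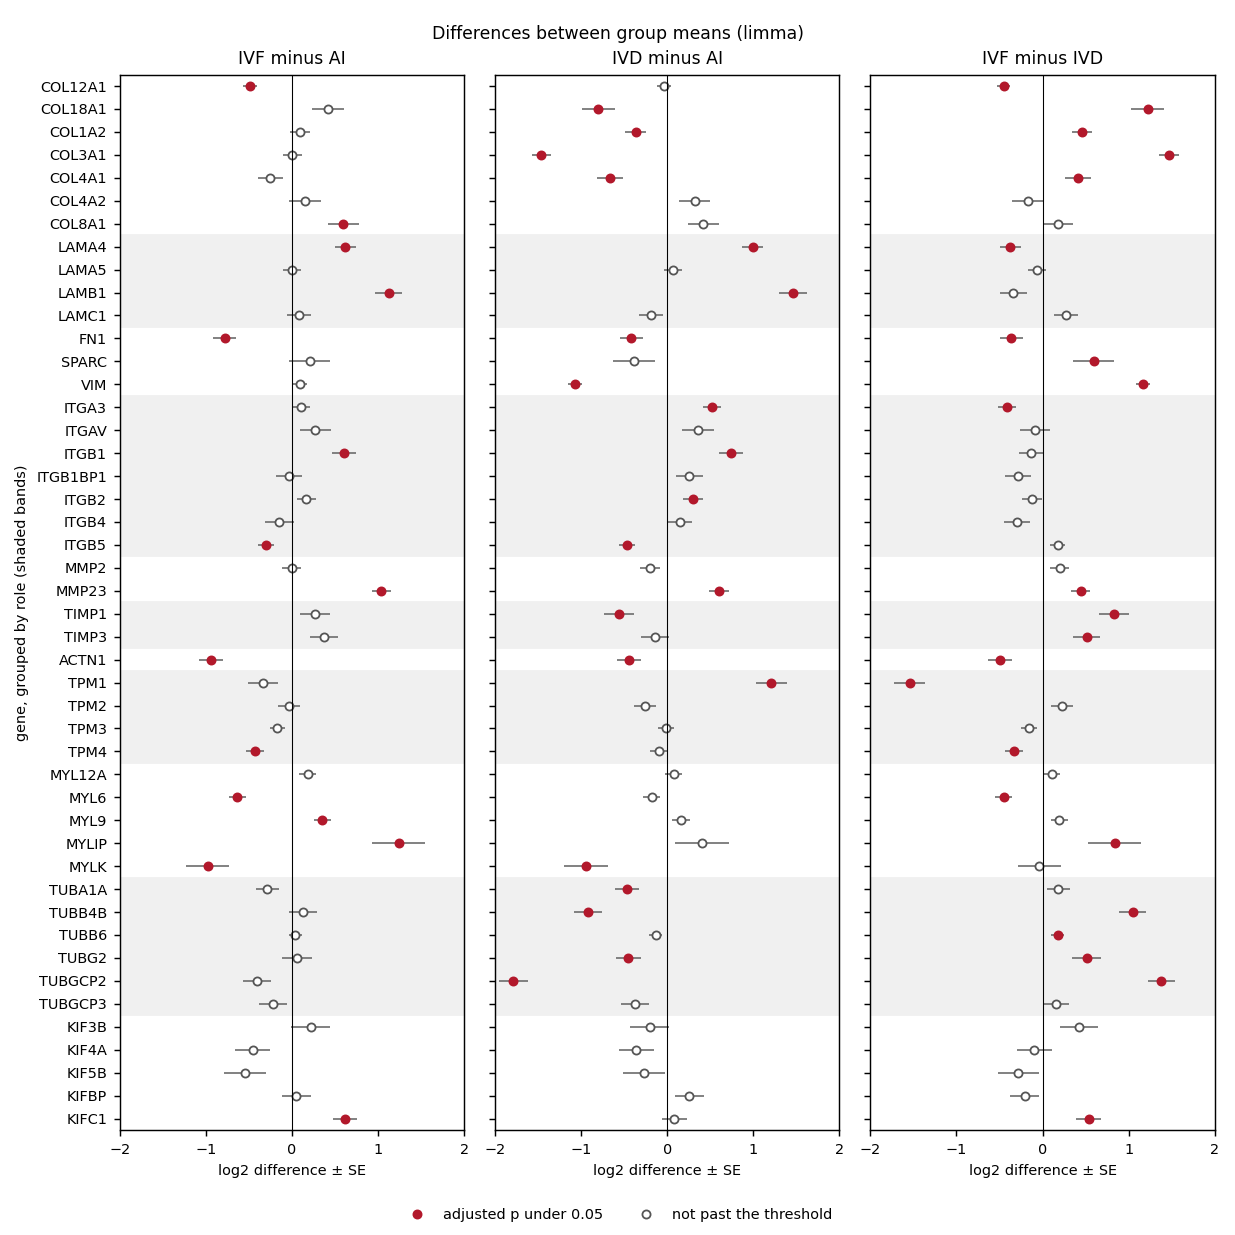
Difference between group means on the log2 scale (horizontal axis) ± SE for each of the 46 genes (vertical axis, shaded bands mark roles) in the 3 contrasts, with filled points past the threshold of 0.05. TUBGCP2 has the lowest difference for IVD minus AI (-1.79) and TPM1 the lowest for IVF minus IVD (-1.54).

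COL3A1 and COL1A2, the fibrillar collagens measured, had ratios far below the reference in every embryo, and COL3A1 was lower again in IVD. COL3A1, the chain of type III collagen, ran from -5.66 to -4.95 in AI embryos (median -5.19), from -7.09 to -6.38 in IVD (median -6.64) and from -6.26 to -4.68 in IVF (median -5.20). All 14 IVD embryos thus lay below the lowest AI and the lowest IVF embryo, while AI and IVF overlapped. Its mean over groups was the lowest of all 6278 features, and would be the highest with the dyes read the other way. The difference was -1.46 ± 0.11 (SE, adjusted p = 1.4e-13 in limma) for IVD minus AI, a 2.75-fold lower ratio, 1.47 ± 0.11 (4.2e-14) for IVF minus IVD and 0.01 ± 0.11 (0.975) for IVF minus AI. Quantile normalization reduced the difference between IVF and IVD to 0.88 and turned that between IVF and AI to -0.30, which limma then called (adjusted p = 0.027).

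COL1A2, a chain of type I collagen, lay between -4.28 and -3.36 in AI (median -3.82), between -4.78 and -3.44 in IVD (median -4.26) and between -4.27 and -3.01 in IVF (median -3.77). The groups overlapped. It fell by 0.37 ± 0.12 in IVD against AI (adjusted p = 0.011 in limma) and was 0.46 ± 0.12 higher in IVF than in IVD (0.0014). Its 2 clones, separate cDNAs of the gene on the array, differed: the IVF minus IVD difference was -0.05 in one and 0.97 in the other. With values as deposited the IVD minus AI difference was -0.11 and the call was lost. Fibroblast and stroma markers other than these collagens were few: 5 of a list of 10 were measured, both collagens included, and only THY1 lay above 0. In IVD beside AI, 3 of the 5 were lower (COL3A1, COL1A2 and THY1, the last by -0.28) and 0 higher. The median of the list ran from -4.28 to -3.23 over AI embryos, from -4.23 to -2.93 in IVD and from -4.07 to -2.82 in IVF. DCN, another defining gene of that list, had means of -3.86, -3.94 and -3.62 in AI, IVD and IVF and passed no contrast. The part of such cells in the collagen values was not tested. Of all 96 features with an IVF mean under -3, 39.6% were lower in IVD than in AI, and their median difference was 0.15. That bound lies above every COL3A1 value, and features as low as COL3A1 were not compared apart.

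Among the basement membrane collagens, COL18A1 and COL4A1 were lower in IVD. COL18A1, the core protein of a heparan sulphate proteoglycan from which endostatin is cut, lay between -1.21 and 1.06 in AI (median 0.42), between -1.35 and 0.49 in IVD (median -0.61) and between 0.27 and 1.52 in IVF (median 0.63). No IVF embryo fell below 0, whereas most IVD embryos did, and 9 of 15 IVF embryos exceeded every IVD embryo. The difference was 1.22 ± 0.19 for IVF minus IVD (adjusted p = 7.6e-07 in limma) and -0.80 ± 0.19 for IVD minus AI (6.7e-04). COL4A1 differed by -0.67 ± 0.15 (3.5e-04) between IVD and AI and by 0.41 ± 0.15 (0.019) between IVF and IVD. COL4A2, which assembles with COL4A1 in the same trimer and is transcribed from a shared promoter, passed no contrast, with differences of 0.32 ± 0.18 (IVD minus AI) and -0.17 ± 0.18 (IVF minus IVD). The COL4A2 values depended on the dye. For IVF minus IVD limma called -0.77 in Cy3 only (adjusted p = 0.0042) and 0.46 in Cy5 only (0.031). For IVD minus AI it called 0.90 in Cy3 only (0.0012) and 0.57 with values as deposited (0.027). COL4A1 again had 2 clones that differed, at -1.19 and -0.04 for IVD minus AI. Its call for IVD minus AI was lost with values as deposited (-0.41). The COL4A1 call for IVF minus IVD was lost with values as deposited (0.17), with the embryo in Cy3 only (0.28) and with the embryo number as a block (0.36).

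COL12A1 and COL8A1 moved in the contrast of IVF with AI. COL12A1, a collagen that decorates fibrils, lay between -0.14 and 0.61 in AI (median 0.33), between -0.01 and 0.56 in IVD (median 0.26) and between -0.51 and 0.12 in IVF (median -0.22). In 10 of 15 IVF embryos it was below every AI embryo. It fell by 0.49 ± 0.08 in IVF against AI (adjusted p = 6.8e-06 in limma) and by 0.45 ± 0.08 against IVD (8.1e-06). Only 2 of its 3 clones moved that way against AI, with differences of -0.69 and -0.75, while the other gave 0.08. With 1 row per gene the IVF minus AI difference was 0.06, so the direction of COL12A1 depends on the clone, and over rows measured in every embryo neither contrast was called (-0.18 and -0.20). COL8A1, a network-forming collagen of subendothelial matrix, was 0.60 ± 0.18 higher in IVF than in AI (0.0074), a call lost with the dye-bias block (adjusted p = 0.478).

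The enzymes that fold and modify collagen chains were measured by 5 genes of a list of 20. P4HB, the beta subunit of prolyl hydroxylase, was lower in IVD than in AI (-0.78 ± 0.13, adjusted p = 3.0e-06 in limma) and differed by 1.15 ± 0.13 (5.4e-10) between IVF and IVD. PPIB, a cyclophilin of the endoplasmic reticulum that aids collagen folding, was lower than in AI both in IVD (-0.87 ± 0.16, 1.6e-05) and in IVF (-0.55 ± 0.15, 0.0045). PLOD2, a lysyl hydroxylase, was higher in IVD than in AI (0.85 ± 0.29, 0.016). In all, 1 of the 5 rose and 3 fell in IVD beside AI, 1 rose and 1 fell in IVF beside AI, and 1 rose in IVF beside IVD.

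Of the 4 laminin chains measured, LAMB1 and LAMA4, a beta and an alpha chain, were higher in both other groups than in AI, and LAMC1 and LAMA5 passed no contrast. LAMB1 lay between -2.58 and -1.13 in AI (median -2.14), between -1.14 and 0.09 in IVD (median -0.53) and between -1.75 and -0.27 in IVF (median -0.82). Of the IVD embryos 13 of 14, and of the IVF embryos 12 of 15, exceeded every AI embryo. The differences were 1.46 ± 0.16 for IVD minus AI (2.75-fold, adjusted p = 6.2e-10 in limma), 1.12 ± 0.16 for IVF minus AI (2.18-fold, 4.1e-07) and -0.34 ± 0.16 for IVF minus IVD (0.07). LAMB1 kept both calls over AI in every alternative, with differences from 1.15 to 1.77 and from 1.01 to 1.42.

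LAMA4 lay between -2.31 and -0.83 in AI (median -1.24), between -0.74 and 0.13 in IVD (median -0.30) and between -1.45 and -0.09 in IVF (median -0.70). Every IVD embryo exceeded every AI embryo, and 10 of 15 IVF embryos did. The differences were 0.99 ± 0.12 for IVD minus AI (adjusted p = 1.7e-08 in limma), 0.62 ± 0.12 for IVF minus AI (1.2e-04) and -0.38 ± 0.12 for IVF minus IVD (0.01). The dye-bias block ended the IVF minus AI call (0.49, adjusted p = 0.179). The IVF minus IVD call was lost with the embryo in Cy3 only (-0.28) and with the embryo number as a block (-0.36).

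LAMC1, the gamma chain shared by most laminins, lay between -1.90 and -0.74 in AI, between -2.09 and -0.74 in IVD and between -1.98 and -0.65 in IVF, with medians of -1.27, -1.43 and -1.13 and overlapping groups. Its differences were 0.08 ± 0.14, -0.19 ± 0.14 and 0.27 ± 0.14 for IVF minus AI, IVD minus AI and IVF minus IVD, none past the threshold. LAMA5, the alpha chain of the laminins of mature basement membranes, differed by 0.07 or less in all 3 contrasts, each with an SE of 0.10 or 0.11.

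**Figure D2:**
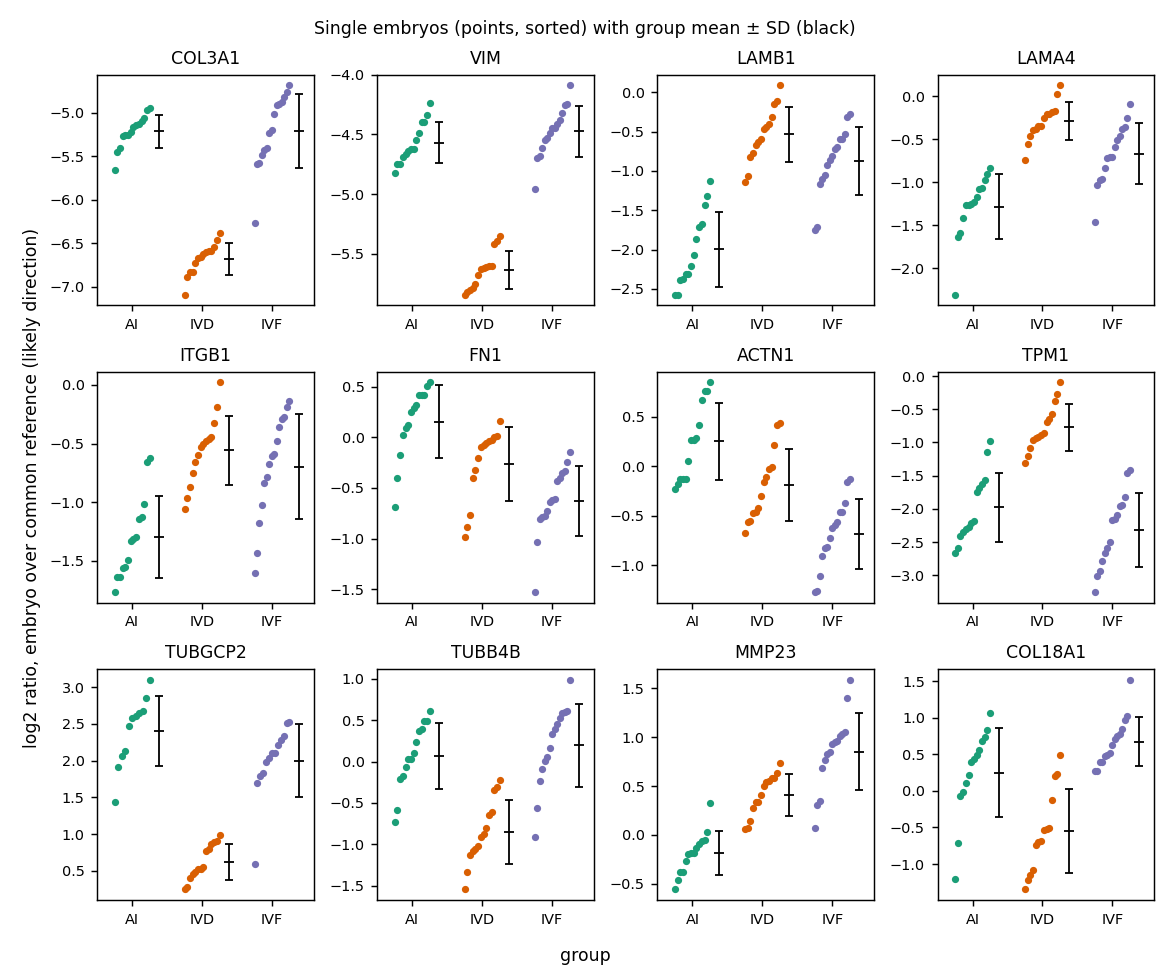
Log2 ratio over the common reference (vertical axis) in single embryos (points, sorted within a group) for 12 genes, with the group mean ± SD in black. COL3A1 and VIM separate IVD from both other groups, and LAMA4 separates IVD from AI.

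FN1, fibronectin, the matrix ligand of several integrins, was lower in IVF and IVD than in AI. It lay between -0.69 and 0.55 in AI (median 0.27), between -0.98 and 0.16 in IVD (median -0.09) and between -1.53 and -0.15 in IVF (median -0.61). All groups overlapped, though 6 of 15 IVF embryos lay below every AI embryo. The differences were -0.78 ± 0.13 for IVF minus AI (adjusted p = 1.3e-05 in limma), -0.42 ± 0.14 for IVD minus AI (0.011) and -0.37 ± 0.13 for IVF minus IVD (0.022). Both clones of FN1 gave the same order, at -0.74 and -0.80 for IVF minus AI. None of the 3 calls held in every alternative: the adjusted p rose to 0.085 with the dye-bias block for IVF minus AI, the IVD minus AI difference was -0.16 with values as deposited, and that of IVF minus IVD was -0.15 with the embryo in Cy3 only.

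SPARC, a secreted protein that binds collagen and calcium and is abundant in parietal endoderm, varied widely between embryos of a group. It lay between -3.70 and -1.003 in AI (median -1.73), between -4.04 and -0.84 in IVD (median -2.23) and between -2.62 and -1.14 in IVF (median -1.42), with full overlap. It was 0.59 ± 0.24 higher in IVF than in IVD (adjusted p = 0.038 in limma), and the call was lost with values as deposited (0.35) and with the embryo in Cy5 only (adjusted p = 0.066).

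Of the other matrix glycoproteins and proteoglycans, 18 genes of a list of 41 were measured. Beside AI, 3 rose and 2 fell in IVF, and 3 rose and 7 fell in IVD; beside IVD, 9 rose and 1 fell in IVF. Over all features 37.7%, 46.5% and 47.6% were called in these contrasts. TNC, the matricellular protein tenascin C, had means of -4.85, -6.32 and -4.70 in AI, IVD and IVF, a difference of -1.47 ± 0.13 for IVD minus AI (adjusted p = 4.8e-12 in limma). SDC4 (-0.93 ± 0.24), a syndecan that acts beside integrins, and SPP1 (-0.83 ± 0.21), the integrin ligand osteopontin, were also lower in IVD than in AI. CCN2, a matricellular target of the YAP and TGF-beta pathways, was higher in IVF than in AI (0.79 ± 0.13, 1.4e-05), as was the fibulin gene FBLN2 (0.50 ± 0.11), while the syndecan gene SDC2 was lower (-0.89 ± 0.33). LGALS1, galectin, differed by 0.84 ± 0.20 between IVF and IVD.

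Integrin chains were measured by 6 genes, and with the binding protein ITGB1BP1 the set held 7 of the 10 on the array. Beside AI, 3 were higher and 1 lower in IVD, 1 was higher and 1 lower in IVF, and 1 was lower in IVF than in IVD. ITGB1, the beta chain of most laminin, collagen and fibronectin receptors, lay between -1.77 and -0.62 in AI (median -1.32), between -1.06 and 0.02 in IVD (median -0.52) and between -1.60 and -0.14 in IVF (median -0.61). Of the IVD embryos 9 of 14, and of the IVF embryos 8 of 15, exceeded every AI embryo. The differences were 0.74 ± 0.14 for IVD minus AI (adjusted p = 3.9e-05 in limma) and 0.60 ± 0.14 for IVF minus AI (7.2e-04). The first held in all alternatives, and the dye-bias block ended the second (0.49, adjusted p = 0.134).

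ITGA3, an alpha chain of laminin receptors that pairs with ITGB1, lay between -0.08 and 0.34 in AI (median 0.02), between 0.04 and 0.92 in IVD (median 0.67) and between -0.82 and 0.73 in IVF (median 0.22). In 12 of 14 IVD embryos it exceeded every AI embryo. It differed by 0.52 ± 0.11 for IVD minus AI (adjusted p = 1.1e-04 in limma) and by -0.42 ± 0.11 for IVF minus IVD (0.0011). Both depended on the dye: with the embryo in Cy5 only they were 0.02 and 0.07, neither past the threshold, so ITGA3 turned sign between IVF and IVD. Where rows with at least 2 embryos per group were let in, the differences were 0.27 and -0.11, and the second was not called.

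ITGB5, a beta chain that pairs with ITGAV as a vitronectin receptor, moved opposite to ITGB1. It lay between -0.98 and 0.11 in AI (median -0.28), between -1.39 and -0.56 in IVD (median -0.71) and between -0.93 and -0.16 in IVF (median -0.61), with overlap. It was lower than in AI in IVD (-0.47 ± 0.09, adjusted p = 6.5e-05 in limma) and in IVF (-0.30 ± 0.09, 0.0094). The IVF minus AI call was lost in 4 of 14 alternatives, and that for IVD minus AI with values as deposited (-0.22). Its partner ITGAV had differences of 0.27 ± 0.18 and 0.36 ± 0.18 from AI in IVF and IVD, not past the threshold. ITGB2, the beta chain of leukocyte integrins, was 0.29 ± 0.12 higher in IVD than in AI (0.036), which 4 of 13 alternatives did not call. Of the blood and immune list only CD14 was measured, at -0.19. ITGB1BP1, which binds the inner tail of ITGB1, and ITGB4, the hemidesmosome chain measured in 9 AI, 14 IVD and 7 IVF embryos, passed no contrast. Both depended on the dye. In Cy3 only, limma called ITGB4 for IVD minus AI (0.72, adjusted p = 0.0022) and for IVF minus IVD (-0.91, 1.4e-04). In Cy5 only, it called ITGB1BP1 for IVF minus IVD (-0.55, adjusted p = 0.0047).

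Behind the integrins, 15 of 37 listed adaptors and signalling genes of focal adhesions were measured. In IVD beside AI, 4 rose and 5 fell; in IVF beside AI, 4 rose and 1 fell; in IVF beside IVD, 5 rose and 2 fell. FERMT2, a kindlin that activates integrins, was higher than in AI in IVD (1.02 ± 0.20, adjusted p = 5.5e-05 in limma) and in IVF (0.55 ± 0.20, 0.024). CAV1, the caveolin that marks many mesenchymal and endothelial cells, had means of -4.24, -5.41 and -4.56 in AI, IVD and IVF (IVD minus AI -1.18 ± 0.27, 4.3e-04; IVF minus IVD 0.86 ± 0.26). EVL, an actin regulator of the Ena/VASP family, was lower in IVD than in AI (-0.91 ± 0.14) and 0.70 ± 0.14 higher in IVF than in IVD. ILK, the integrin-linked kinase, differed by 0.70 ± 0.08 (3.7e-09) between IVF and IVD. FHL2 (0.68 ± 0.19) and FHL1 (0.41 ± 0.15), LIM-domain adaptors, were higher in IVF than in AI.

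MMP23, a membrane-bound metalloproteinase, increased in both other groups over AI. It lay between -0.56 and 0.32 in AI (median -0.19), between 0.06 and 0.74 in IVD (median 0.45) and between 0.07 and 1.59 in IVF (median 0.93). In IVF 13 of 15 embryos exceeded every AI embryo and 11 exceeded every IVD embryo. The differences were 1.04 ± 0.11 for IVF minus AI (2.06-fold, adjusted p = 2.1e-09 in limma), 0.60 ± 0.11 for IVD minus AI (3.7e-05) and 0.44 ± 0.11 for IVF minus IVD (0.0012). Both calls over AI held in every alternative, while the call between IVF and IVD was lost with values as deposited (0.19) and with the embryo in Cy3 only (0.28). MMP2, gelatinase A, lay between -3.42 and -2.38 in AI (10 embryos, median -2.93), between -3.32 and -2.75 in IVD (12 embryos, median -3.18) and between -3.35 and -2.48 in IVF (13 embryos, median -2.95). MMP2 overlapped in all groups and passed no contrast, but 2 alternatives called it in limma. For IVD minus AI it was -0.60 with quantile normalization (adjusted p = 2.1e-05) and -0.57 with the embryo in Cy5 only (0.013). For IVF minus IVD it was 0.36 (0.0029) and 0.59 (0.0053) in the same 2 runs.

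The inhibitors TIMP1 and TIMP3 were higher in IVF than in IVD. TIMP1 lay between -2.85 and -1.88 in AI (median -2.28), between -3.83 and -1.99 in IVD (median -2.95) and between -2.66 and -0.77 in IVF (median -2.20). In 9 of 14 IVD embryos it was below every AI embryo. It differed by 0.83 ± 0.17 for IVF minus IVD (adjusted p = 1.1e-04 in limma) and by -0.56 ± 0.18 for IVD minus AI (0.0084), the latter lost with values as deposited (-0.31). TIMP3, the inhibitor that stays bound to matrix, lay between -2.07 and -0.52 in AI (median -1.66), between -2.12 and -1.24 in IVD (median -1.70) and between -1.79 and -0.14 in IVF (median -1.20). Its difference of 0.51 ± 0.16 for IVF minus IVD (0.0076) joined clones at different levels, and was lost with values as deposited (0.27, adjusted p = 0.34). One TIMP3 clone had means of -3.62, -3.53 and -3.52 in AI, IVD and IVF, and the other 0.19, 0.20 and 1.12. The second clone alone gave 0.93 for IVF minus AI and 0.92 for IVF minus IVD, against 0.09 and 0.01 in the first, and with 1 row per gene, which takes the second, limma called TIMP3 for IVF minus AI (adjusted p = 5.7e-09).

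Other proteases that act on matrix were measured by 10 genes of a list of 21: 3 rose and 0 fell in IVF beside AI, 4 rose and 4 fell in IVD beside AI, and 5 rose and 1 fell in IVF beside IVD, with 37.7%, 46.5% and 47.6% called over all features. PLAU, urokinase, had means of -1.18, -0.22 and 0.49 in AI, IVD and IVF, differences of 1.67 ± 0.31 for IVF minus AI (adjusted p = 4.8e-05 in limma) and 0.97 ± 0.32 for IVD minus AI (0.012). Its receptor PLAUR was 0.26 ± 0.09 higher in IVF than in AI (0.02) and 0.69 ± 0.09 higher in IVF than in IVD (3.6e-08). PLAT, the tissue-type activator, was lower in IVD than in AI (-1.06 ± 0.09, 3.6e-12) and 1.13 ± 0.09 higher in IVF than in IVD. CTSS, a lysosomal cysteine protease, was 1.23 ± 0.17 higher in IVD than in AI. ADAM17, the sheddase, was 0.39 ± 0.14 higher in IVF than in AI (0.028).

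On the actin side, ACTN1, the alpha-actinin that cross-links actin filaments at adhesions, was highest in AI, lower in IVD and lowest in IVF. It lay between -0.23 and 0.85 in AI (median 0.27), between -0.67 and 0.44 in IVD (median -0.23) and between -1.27 and -0.12 in IVF (median -0.62). Of the IVF embryos 13 of 15 lay below every AI embryo, while IVD overlapped with both. The differences were -0.94 ± 0.14 for IVF minus AI (adjusted p = 1.1e-06 in limma), -0.44 ± 0.14 for IVD minus AI (0.0084) and -0.49 ± 0.14 for IVF minus IVD (0.0027). The fall in IVF held in every alternative against AI (-0.96 to -0.90) and against IVD (-0.74 to -0.34), and the IVD minus AI call was lost in 3 of 13.

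Of the 4 tropomyosins, which lie along actin filaments and set their access to myosin, TPM1 and TPM4 moved. TPM1 lay between -2.66 and -0.97 in AI (median -2.20), between -1.31 and -0.09 in IVD (median -0.88) and between -3.25 and -1.41 in IVF (median -2.17). Every IVF embryo lay below every IVD embryo, and 11 of 14 IVD embryos exceeded every AI embryo. The differences were 1.21 ± 0.18 for IVD minus AI (2.31-fold, adjusted p = 6.3e-07 in limma), -1.54 ± 0.18 for IVF minus IVD (1.9e-09) and -0.34 ± 0.18 for IVF minus AI (0.127). TPM4 lay between 0.18 and 1.08 in AI (median 0.84), between 0.23 and 0.95 in IVD (median 0.74) and between -0.26 and 0.73 in IVF (median 0.36). It was lower in IVF than in AI (-0.43 ± 0.10, 0.0011) and than in IVD (-0.33 ± 0.10, 0.0077), and overlapped throughout. The first call was lost with values as deposited (adjusted p = 0.06) and with the dye-bias block (adjusted p = 0.302). The second was lost with the embryo in Cy3 only (-0.14). TPM2 (-0.59 to 0.57 in AI, median -0.03; -0.75 to 0.11 in IVD, median -0.18; -1.07 to 0.58 in IVF, median -0.03) and TPM3 passed no contrast.

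The symbols that start with MYL hold 3 myosin light chains, a kinase and a ubiquitin ligase. MYL6, the essential light chain of non-muscle myosin, lay between -0.60 and 0.30 in AI (median -0.15), between -0.69 and 0.01 in IVD (median -0.31) and between -1.31 and -0.29 in IVF (median -0.84). In IVF 12 of 15 embryos lay below every AI embryo and 10 below every IVD embryo. The differences were -0.64 ± 0.10 for IVF minus AI (adjusted p = 2.7e-06 in limma) and -0.45 ± 0.10 for IVF minus IVD (1.9e-04). The dye-bias block raised the adjusted p of the first to 0.068, and the second was -0.27 with the embryo in Cy3 only. MYL9, a regulatory light chain, was 0.35 ± 0.10 higher in IVF than in AI (0.0055), lost in 3 of 13 alternatives, and MYL12A, another, passed no contrast. For IVF minus IVD limma called MYL12A at 0.50 in Cy3 only (adjusted p = 1.5e-04) and at -0.29 in Cy5 only (0.037).

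MYLK, the kinase that phosphorylates the regulatory light chain, lay between -0.69 and 2.14 in AI (median 1.30), between -1.20 and 0.97 in IVD (median 0.30) and between -0.93 and 1.22 in IVF (median -0.12). The groups overlapped widely. MYLK was lower than in AI in IVF (-0.98 ± 0.25, adjusted p = 0.0019 in limma) and in IVD (-0.94 ± 0.25, 0.0022), and the dye-bias block ended the first call (-1.07, adjusted p = 0.127). With the embryo number as a block both MYLK calls were lost (-0.72, adjusted p = 0.094, and -0.77, 0.088). With the embryo in Cy3 only the second was -0.58 and still called. MYLIP, a ubiquitin ligase known for the turnover of the LDL receptor, lay between -3.95 and -0.91 in AI (median -2.11), between -4.23 and -0.26 in IVD (median -1.52) and between -1.81 and 0.36 in IVF (median -0.91). It was higher in IVF than in AI (1.24 ± 0.31, 0.0015) and than in IVD (0.84 ± 0.31, 0.022). The first of these MYLIP calls was lost with the dye-bias block (0.66), and the second with values as deposited (0.59) and without IVF embryos 1, 7 and 11 (0.71, adjusted p = 0.071).

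Of 64 listed genes of actin turnover and myosin heavy chains, 33 were measured: 6 rose and 5 fell in IVF beside AI, 12 rose and 9 fell in IVD beside AI, and 8 rose and 8 fell in IVF beside IVD. TMSB4X, which sequesters actin monomers, had means of -0.77, -0.01 and -1.49 in AI, IVD and IVF. It was 0.77 ± 0.18 higher in IVD than in AI (adjusted p = 6.8e-04 in limma) and lower in IVF than in IVD (-1.48 ± 0.18, 6.5e-09). The paralogue TMSB10 was lower in IVF than in AI (-0.94 ± 0.14, 1.0e-06). CAP1, an actin-recycling protein, was higher in IVF than in AI (0.72 ± 0.13) and TAGLN2 lower in IVD than in AI (-0.96 ± 0.13). CAPZA2, a capping protein subunit, and MYH11, the smooth muscle heavy chain, were 1.17 ± 0.19 and 0.82 ± 0.14 higher in IVF than in IVD.

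VIM, vimentin, the intermediate filament protein of mesenchymal cells, repeated the order of COL3A1. It lay between -4.82 and -4.24 in AI (median -4.62), between -5.85 and -5.36 in IVD (median -5.63) and between -4.96 and -4.09 in IVF (median -4.45). All IVD embryos lay below all others, and AI and IVF overlapped. The differences were -1.07 ± 0.08 for IVD minus AI (2.1-fold lower, adjusted p = 4.7e-14 in limma), 1.17 ± 0.08 for IVF minus IVD (1.5e-15) and 0.10 ± 0.08 for IVF minus AI (0.344). Both VIM clones gave this, at -0.97 and -1.17 for IVD minus AI. Quantile normalization turned the IVF minus AI difference of VIM to -0.29, which limma then called (adjusted p = 0.018). Of the fibroblast and stroma list given with the collagens above, 3 of the 5 measured genes were lower in IVD than in AI and 0 higher. Its members DCN and TAGLN passed no contrast. The part of such cells in the vimentin value was not tested. Of the other intermediate filament and lamina genes 4 of 10 were measured: 0 rose and 2 fell in IVD beside AI, 0 rose and 1 fell in IVF beside AI, and 1 rose in IVF beside IVD. LMNA, the A-type lamin, was lower in IVD than in AI (-0.57 ± 0.13, 2.8e-04) and 0.72 ± 0.12 higher in IVF than in IVD. EMD, emerin, was lower in IVD than in AI (-0.64 ± 0.17), and DES, desmin, lower in IVF than in AI (-0.38 ± 0.12, 0.013).

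**Figure D3:**
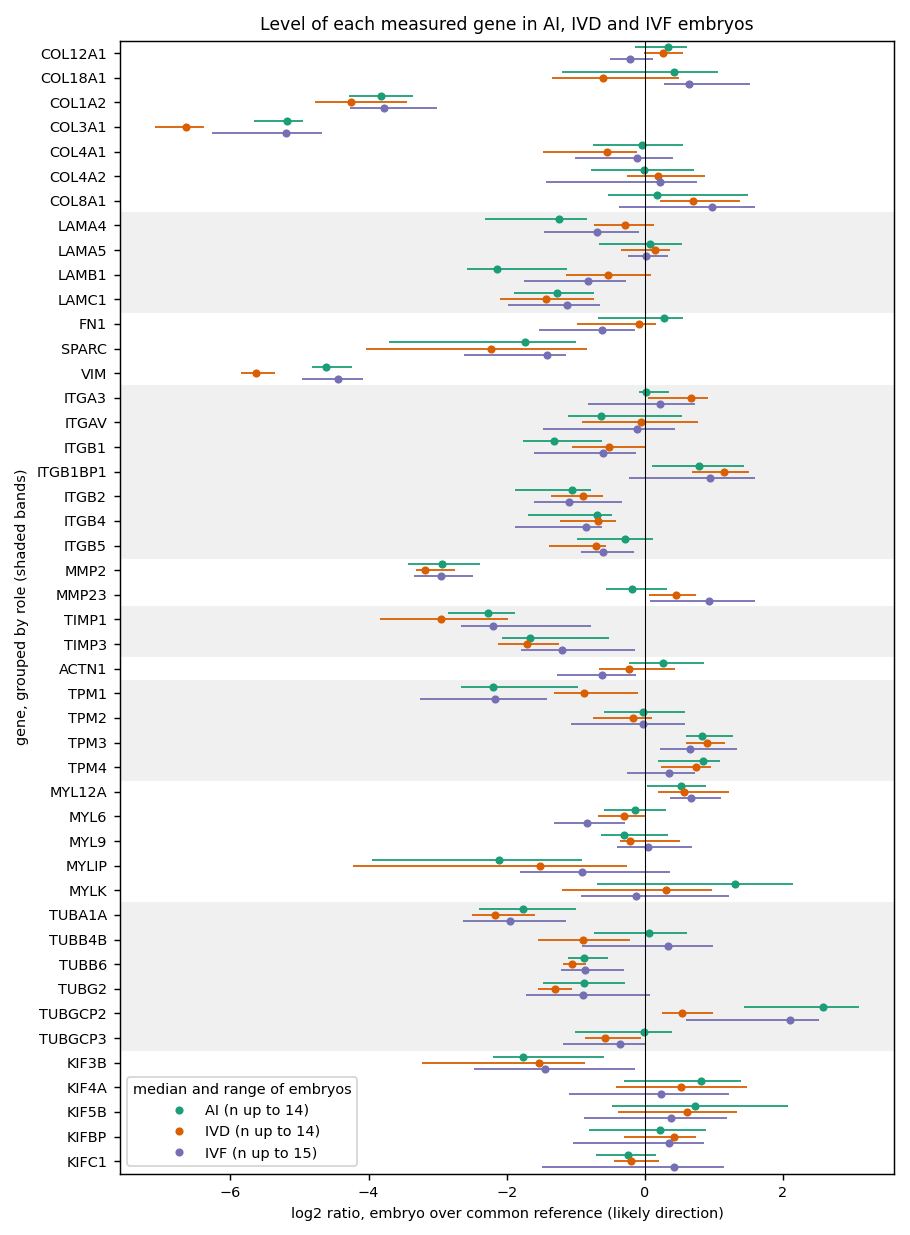
Log2 ratio over the common reference (horizontal axis) of each gene (vertical axis) as the median (point) and the lowest to highest embryo (line) in AI, IVD and IVF. COL3A1, VIM, COL1A2, MMP2 and TIMP1 have means over groups under -2, and TUBGCP2 has medians of 2.58 in AI and 2.10 in IVF against 0.54 in IVD.

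Tubulins and the gamma-tubulin proteins that nucleate microtubules were measured by 6 genes. In IVD beside AI 4 fell and 0 rose (21% of all features fell), in IVF beside IVD 4 rose and 0 fell (22.3% of all features rose), and limma called 0 in IVF beside AI (2 at an unadjusted p under 0.05). TUBGCP2, a subunit of the gamma-tubulin ring complex, lay between 1.43 and 3.10 in 11 AI embryos (median 2.58), between 0.25 and 0.99 in 14 IVD embryos (median 0.54) and between 0.60 and 2.52 in 13 IVF embryos (median 2.10). Every IVD embryo lay below every AI embryo, and 12 of 13 IVF embryos exceeded every IVD embryo. The differences were -1.79 ± 0.16 for IVD minus AI (3.45-fold lower, adjusted p = 3.7e-11 in limma) and 1.38 ± 0.16 for IVF minus IVD (3.3e-09). Their size depended on the dye: with the embryo in Cy3 only TUBGCP2 gave -1.18 and 0.60, and the IVF minus IVD difference was 2.15 in Cy5 only. For IVF minus AI the difference of TUBGCP2 was -0.41 ± 0.17 (adjusted p = 0.052 in limma), and 4 alternatives called it, with -1.19 (adjusted p = 0.022) under the dye-bias block and -0.58 with the embryo in Cy3 only. The blocked value leans on AI 17 and IVF 5, which lay in the cluster of the other group. IVF 5 was the lowest IVF embryo (0.60), and IVF 19, also in that position, had no TUBGCP2 value.

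TUBB4B, a beta-tubulin of widely expressed microtubules and cilia, lay between -0.73 and 0.61 in AI (median 0.06), between -1.55 and -0.22 in IVD (median -0.90) and between -0.91 and 0.99 in IVF (median 0.33). In 12 of 15 IVF embryos it exceeded every IVD embryo. It differed by -0.92 ± 0.16 for IVD minus AI (adjusted p = 1.1e-05 in limma) and by 1.05 ± 0.16 for IVF minus IVD (6.4e-07). TUBG2, a gamma-tubulin, lay between -1.48 and -0.29 in 12 AI embryos (median -0.88), between -1.55 and -1.06 in 14 IVD embryos (median -1.30) and between -1.72 and 0.07 in 8 IVF embryos (median -0.89). It differed by -0.45 ± 0.15 (0.012) and 0.51 ± 0.17 (0.011) in the same contrasts. Each of these TUBG2 calls was lost in 3 of 12 alternatives.

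TUBA1A, an alpha-tubulin whose near-identical paralogues may share its spot, was lower in IVD than in AI (-0.47 ± 0.13, adjusted p = 0.0041 in limma), a call lost with values as deposited (-0.21) and with the embryo in Cy3 only (-0.13); in Cy5 only it was -0.81. TUBB6 was 0.17 ± 0.07 higher in IVF than in IVD (0.043), and 6 of 13 alternatives did not keep this: its direction flipped with values as deposited (-0.07), with Cy3 only (-0.03) and with 1 row per gene (-0.11). TUBGCP3, another ring complex subunit, was not called in any contrast, with -0.38 ± 0.16 for IVD minus AI (0.054). The count of 4 tubulins lower in IVD than in AI thus became 2, TUBB4B and TUBGCP2, with values as deposited.

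The symbols that start with KIF were measured by 5 genes, kinesins and the kinesin-binding protein KIFBP. Of these, limma called 0 for IVD minus AI (0 also at an unadjusted p under 0.05). KIFC1 was the 1 gene called in each of the other contrasts. KIFC1, a minus-end-directed motor of the spindle, lay between -0.71 and 0.17 in AI (median -0.24), between -0.44 and 0.21 in IVD (median -0.20) and between -1.49 and 1.14 in IVF (median 0.43). Of the IVF embryos 12 of 15 exceeded every AI embryo and 1 lay below them all. The differences were 0.61 ± 0.14 for IVF minus AI (adjusted p = 7.3e-04 in limma) and 0.54 ± 0.14 for IVF minus IVD (0.0018). The first was 0.29 and not called with the embryo in Cy3 only, and 0.94 in Cy5 only; the second was 0.29 and not called with values as deposited.

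KIF4A, a chromosome-bound motor of dividing cells, lay between -0.30 and 1.40 in AI (median 0.81), between -0.42 and 1.48 in IVD (median 0.52) and between -1.10 and 1.21 in IVF (median 0.23). KIF5B, the conventional kinesin heavy chain, lay between -0.48 and 2.07 in 12 AI embryos (median 0.72), between -0.39 and 1.33 in IVD (median 0.61) and between -0.88 and 1.18 in 14 IVF embryos (median 0.38). Their groups overlapped, with 1 IVF embryo for KIF4A and 3 for KIF5B below every AI embryo, and IVF minus AI differences of -0.46 ± 0.20 (adjusted p = 0.069 in limma) and -0.55 ± 0.24 (0.073). The dye-bias block called KIF4A in this contrast (-1.08, adjusted p = 0.033). That value leans on AI 17 (1.11), IVF 5 (-0.02) and IVF 19 (-1.10), which lay in the cluster of the other group. With the embryo in Cy3 only, limma called KIF5B for IVF minus AI (-0.77, adjusted p = 0.012) and for IVF minus IVD (-1.05, adjusted p = 3.2e-04). KIF3B, a motor of ciliary transport, and KIFBP, a kinesin-binding protein, passed no contrast either.

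Around the microtubule, 25 of 50 listed genes were measured: 4 rose and 4 fell in IVF beside AI, 4 rose and 3 fell in IVD beside AI, and 8 rose and 5 fell in IVF beside IVD. ACTR1A, the filament subunit of dynactin, had means of -1.06, -2.44 and -1.08 in AI, IVD and IVF (IVD minus AI -1.37 ± 0.14, adjusted p = 2.0e-10 in limma). STMN1, stathmin, which destabilises microtubules, was lower in IVF than in AI (-1.10 ± 0.23, 2.7e-04) and than in IVD (-0.92 ± 0.23). DYNC1LI2, a light intermediate chain of dynein, was 0.71 ± 0.17 higher in IVF than in AI. TBCB, a tubulin folding cofactor, was lower than in AI in IVF (-0.58 ± 0.13) and in IVD (-0.97 ± 0.14). CLIP1, which tracks growing plus ends, was 0.96 ± 0.15 higher in IVD than in AI, and TBCA, another folding cofactor, was lower in IVF than in IVD (-0.86 ± 0.15).

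In 11 genes several clones could be compared. Their differences had opposite signs in 6 genes for IVF minus AI, in 5 for IVD minus AI and in 4 for IVF minus IVD. Among the called genes these were COL12A1 in the first contrast, none in the second, and COL1A2, COL4A1 and TUBB6 in the last; the COL4A1 clone that turned lay at 0. FN1 and VIM had clones that moved alike in all 3 contrasts. LAMC1 clones stood at different levels, with AI means of -1.99 and -0.45. LAMA5 and TPM3 clones moved in opposite directions from AI, at -0.29 and 0.28 for LAMA5 and at -0.40 and 0.08 for TPM3 in IVF.

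**Figure D4:**
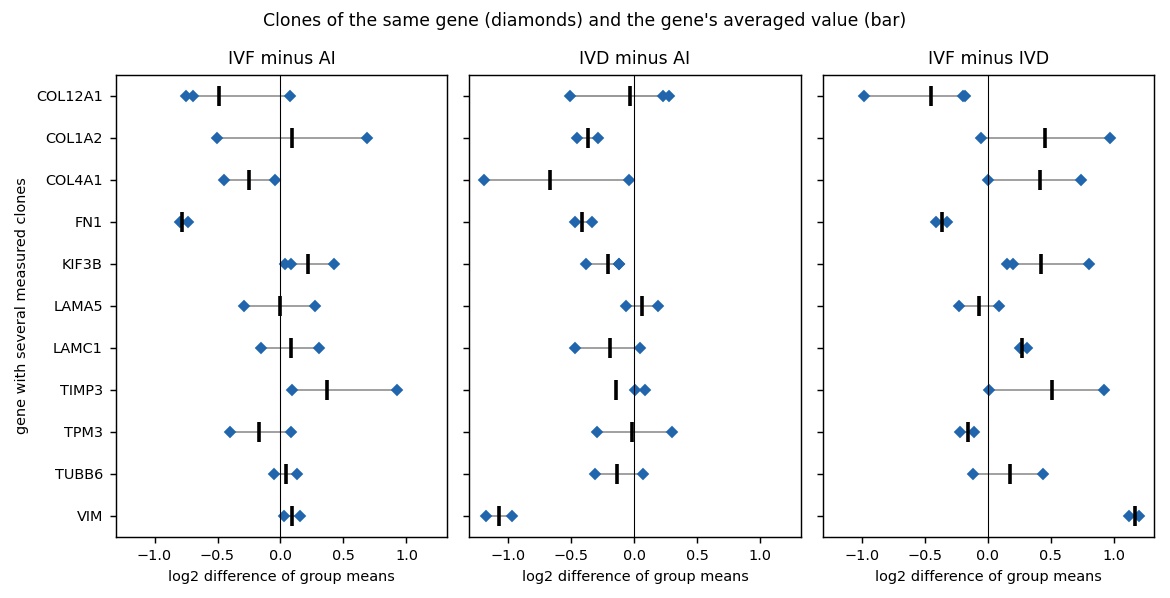
Difference of group means on the log2 scale (horizontal axis) for each clone (diamonds) of the 11 genes with several measured clones (vertical axis), with the averaged gene value as a black bar, in the 3 contrasts. VIM and FN1 clones lie close together, whereas COL1A2, COL4A1 and TIMP3 clones lie apart.

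No contrast was passed by 15 of the 46 genes: COL4A2, LAMA5, LAMC1, ITGAV, ITGB1BP1, ITGB4, MMP2, TPM2, TPM3, MYL12A, TUBGCP3, KIF3B, KIF4A, KIF5B and KIFBP. Alternative runs called several of these, such as COL4A2, ITGB4, MMP2, MYL12A and KIF5B. All 3 contrasts were passed by 4 genes: ACTN1, FN1, LAMA4 and MMP23. The 13 genes with values in too few embryos were COL6A1, COL7A1, ITGA2B, ITGAD, ITGB7, MMP19, ACTN2, ACTN4, TUBD1, KIF2C, KIF13B, KIF16B and KIFC3. COL6A1, a chain of type VI collagen, had a value in 0 AI, 13 IVD and 0 IVF embryos, and ACTN2, the muscle alpha-actinin, in 0, 10 and 0. ACTN4, the paralogue of ACTN1 in non-muscle cells, had one in 3 AI, 14 IVD and 8 IVF embryos. IVD arrays had fewer empty rows for all features, and 991 of the 16416 rows had values in at least 10 IVD embryos and in no AI or IVF embryo, so these counts describe which spots carry a value.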

How the data were processed

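Each embryo's RNA went through more rounds of linear amplification than the reference RNA before labelling, per the labels' protocols. The authors deposited log2 ratios, in 1 table of 16416 rows and 86 arrays. How they corrected background, normalized, or left spots without a value is not stated in the labels or the table. In 20.1% of cells no value was used, 16 spots at a ceiling of 16.61 among them. Before centring, the medians of single arrays spanned -2.22 to 1.06. The median of the 5558 rows that no array lacks was therefore subtracted from each array, the sign was turned where the embryo carried Cy3, and both arrays of an embryo were averaged. Rows with a value in at least 7 embryos of each group were kept (10757), and rows with the same single symbol averaged, which gave 6278 features (3433 named genes and 2845 rows without 1 symbol). Gene names are those of the platform annotation, and clones are told apart by its accessions.

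All features were fitted in limma 3.58.1 (R 4.3.3, lmFit and eBayes, group means over 43 embryos) with two-sided tests, Benjamini-Hochberg adjustment over all features and a threshold of 0.05. The script was tested on simulated data. The number of arrays limits the precision. The genes, the related lists and the markers were chosen with earlier results of these data known. Every gene of the rule may be named, with statistics for the 12 highest and 12 lowest called per contrast; up to 3 genes per role with the largest F have their range given, and up to 3 called genes per related list and contrast are named, except 1 gene of the actin list that is not reported here. A set of 13 alternatives changed the centring, the dye, the filter, the clones, the block or the embryos used, and 1 more, leaving out dim spots, was chosen after seeing the data. Embryo numbers recur between groups, but the deviations of 21 same-numbered pairs had a median correlation of 0.0057 (-0.187 to 0.213), so the embryos were not treated as paired. Figures were drawn with matplotlib 3.10.9. No sequence of a gene or clone was used here.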

Additional observations from a re-analysis of the deposited data

How the results depend on the processing

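Of the called differences, 3 of 15 (IVF minus AI), 10 of 21 (IVD minus AI) and 9 of 23 (IVF minus IVD) kept their direction and stayed past the threshold in every alternative run. The dye-bias block was among the runs of IVF minus AI only, so these counts do not rank the contrasts. The dye-bias cluster as a block left 6 genes called for IVF minus AI and 498 of all features. With the values as deposited, all features called for IVF minus AI numbered 1325, and the median difference of the 46 genes was 0.10 for IVD minus AI and -0.14 for IVF minus IVD; the last was -0.031 with the embryo in Cy3 only and 0.35 in Cy5 only. Rows measured in every embryo leave 34 of the 46 genes and 3711 features, of which 1571, 1770 and 1880 were called for IVF minus AI, IVD minus AI and IVF minus IVD. Differences that reversed were, for IVF minus AI, COL3A1 (-0.30) and VIM (-0.29) with quantile normalization and COL12A1 (0.063) and COL1A2 (-0.46) with 1 row per gene. For IVD minus AI, TPM3 was 0.30 over rows measured in every embryo and 0.30 with 1 row per gene. For IVF minus IVD, TUBB6 was -0.072 as deposited, -0.033 in Cy3 only and -0.11 with 1 row per gene, COL1A2 was -0.052 with 1 row per gene, and in Cy5 only COL4A2 was 0.46, ITGA3 0.071 and MYL12A -0.29. Where 1 row per gene reversed a value, it takes 1 of several clones; for the other reversals the cause was not tested. With the embryo number as a replicate block, 12, 18 and 18 genes were called in the 3 contrasts, but the numbers do not pair the embryos. Leaving out dim spots (0.928% of values), a setting chosen after seeing the data, gave 15, 22 and 23 calls. The arrays carry no spot intensities here, so signal over background is unknown.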

Other observations

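KIFC3, a minus-end-directed kinesin, had no AI embryo with values on both arrays, whereas 14 of 14 IVD and 15 of 15 IVF embryos had them. It carried a value in 9 AI embryos when the embryo was labelled with Cy3 and in 3 when labelled with Cy5. A value in no AI embryo and in every IVD and IVF embryo occurred in 4 of the 16416 rows of the table. These counts are of spots with a value, and the labels do not state the rule that left spots empty.

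Genes whose products assemble with one another were compared across the embryos of each group. For 10 such pairs in 3 groups, 30 correlations were computed, and 0 passed after adjustment over all 30 (lowest adjusted p of Pearson's r 0.247, 100000 permutations). The largest r in size was that of LAMA5 and LAMC1 in IVD (-0.65, permutation p = 0.011). Their Spearman rho was -0.51 (permutation p = 0.064), and r was -0.31 without the 2 embryos farthest from the median of LAMA5. COL4A1 and COL4A2, chains of the same collagen, had a Pearson r of -0.61 over 14 AI embryos (permutation p = 0.02) and a Spearman rho of -0.44 (permutation p = 0.117), and r was -0.24 without the 2 embryos farthest from the median of COL4A1. In 14 IVD embryos r was 0.47 (permutation p = 0.093), with a rho of 0.46 (permutation p = 0.097) and an r of 0.16 without the 2 farthest.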
